A study of Mus musculus with 4 samples.

Results

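The genes described here encode proteins that repair DNA, 43 in all. They were chosen by name, with earlier results of these data known. On the array 42 of them carried a probe set with a single gene symbol, out of 18194 named genes. Xrcc2 is not analysed here. A gene with several probe sets was represented by the one whose 4 levels averaged highest, and the genes were ordered by 5 repair routes. These were direct reversal and base excision (9 measured genes), mismatch repair (4), nucleotide excision (9), homologous recombination and the Fanconi pathway with the damage kinases (15), and end joining with its end-binding proteins (5).

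Livers of mice aged 10 months were compared in a design that crossed diethylnitrosamine (DEN), a liver carcinogen, with a bile acid diet holding 0.2% cholic acid (CA). Mice had either diet alone or either diet together with DEN, which makes 4 groups. Each group was 1 array with RNA pooled from 3 to 5 livers, so no difference has a replicate or a test, and every comparison is one of 2 pools. Strain, sex, the dose and age at DEN treatment, and the share of tumour tissue in a pool were not stated in the labels. In such bulk RNA, a change in the share of a cell type and a change in RNA per cell cannot be told apart.

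DEN is activated by liver cytochromes to a species that ethylates DNA bases. O6-ethylguanine is reversed directly by the methyltransferase Mgmt, and ethylated purines such as 3-ethyladenine can be cut out by the glycosylase Mpg, which opens base excision repair. Bulky and helix-distorting damage goes to nucleotide excision, replication errors go to mismatch repair, and double-strand breaks are mended by recombination in dividing cells or by end joining at any time. Many recombination and mismatch genes are transcribed most in cells that replicate their DNA.

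The deposited values were on a log2 scale, on which a difference of 1 is 2-fold and 0.585 is 1.5-fold. The array medians over all probe sets lay between 4.84 and 4.86. The median over probe sets of the mean level was 4.855, and levels below it were treated as low, since no detection calls were used. The liver label fitted its markers, since the 5 measured hepatocyte genes had mean levels of 13.98, 14.00, 13.88 and 13.63 in the order control, CA, DEN and DEN with CA. These genes did not move alike. For DEN under control diet and under CA diet, Tat differed by -0.45 and -1.65 and Cps1 by -0.31 and -0.48. Alb, Apoa1 and Ttr lay between -0.05 and 0.23 in both. The 18 hybridization control probe sets differed by at most 0.20 to 0.37 in the 4 comparisons.

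Among the repair genes 1 differed more than 2-fold. Rad51b was more than 2-fold higher after DEN on both diets and higher again on the CA diet after DEN, but on only 1 of its 2 probe sets. The other 41 genes were less than 2-fold different in all 4 comparisons, as were 93.5% of all genes. In all, 35 of 42 (83.3%) were less than 1.5-fold different throughout, near the 81.3% of all genes. For 30 genes (71.4%) the highest and lowest of the 4 arrays lay less than 0.5 apart, as for 70.1% of all genes. These shares were close to those of all genes.

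**Figure D1:**
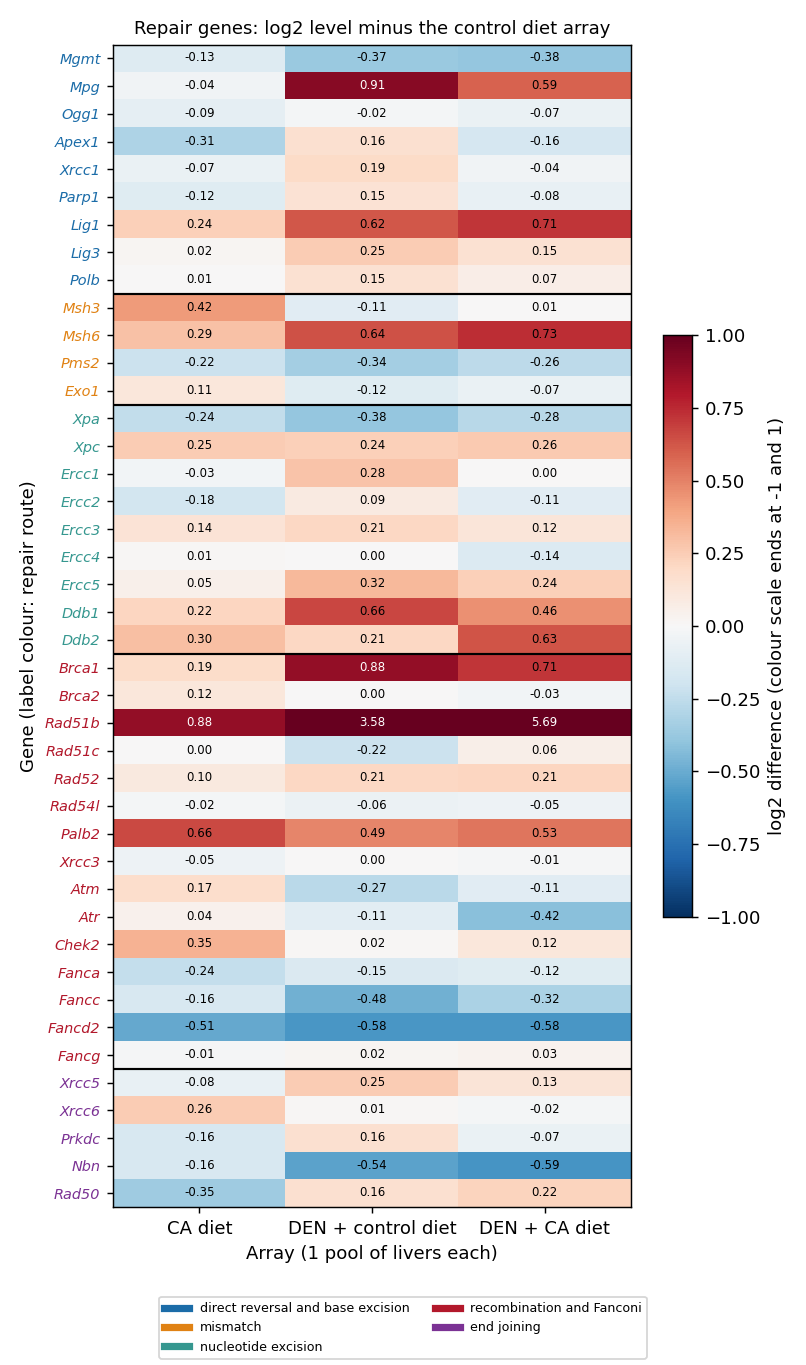
Log2 level of each of 42 repair genes minus its level on the control diet array, for the other 3 arrays, 1 pool of livers each, with label colours giving the repair route. Rad51b reaches 5.69 on the array of DEN with CA diet. Mgmt, Fancd2 and Nbn are among the genes that lie below the control diet array on all 3 arrays, as do Pms2, Xpa and Fancc.

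The Rad51b protein acts in the repair of double-strand breaks by homologous recombination. Probe set 1421430_at of Rad51b read 3.26 on the control diet, 4.14 on the CA diet, 6.84 after DEN on the control diet and 8.95 after DEN on the CA diet. Both arrays without DEN lay below 4.855 and both arrays with DEN above it. With low levels raised to 4.855, Rad51b was at least 3.95-fold higher after DEN on the control diet and at least 17.1-fold higher after DEN on the CA diet. The CA diet after DEN went with a 4.32-fold higher level than the control diet after DEN, a difference of 2.11. Without DEN the difference between the diets was 0.88, between levels that both lay under 4.855.

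The other probe set of Rad51b, 1430486_at, read 3.51, 3.88, 3.79 and 3.41 on the same arrays in the same order. All 4 of these values lay under 4.855. Its difference for DEN was 0.29 under control diet and -0.47 under CA diet, and its difference for the CA diet after DEN was -0.38. The gap between the probe sets was 3.29 for DEN on the control diet, where the next widest among the 29 members with several probe sets was 1.05. With the mean over both probe sets, the CA diet difference after DEN was 0.86 and the DEN differences were 1.93 and 2.17.

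**Figure D2:**
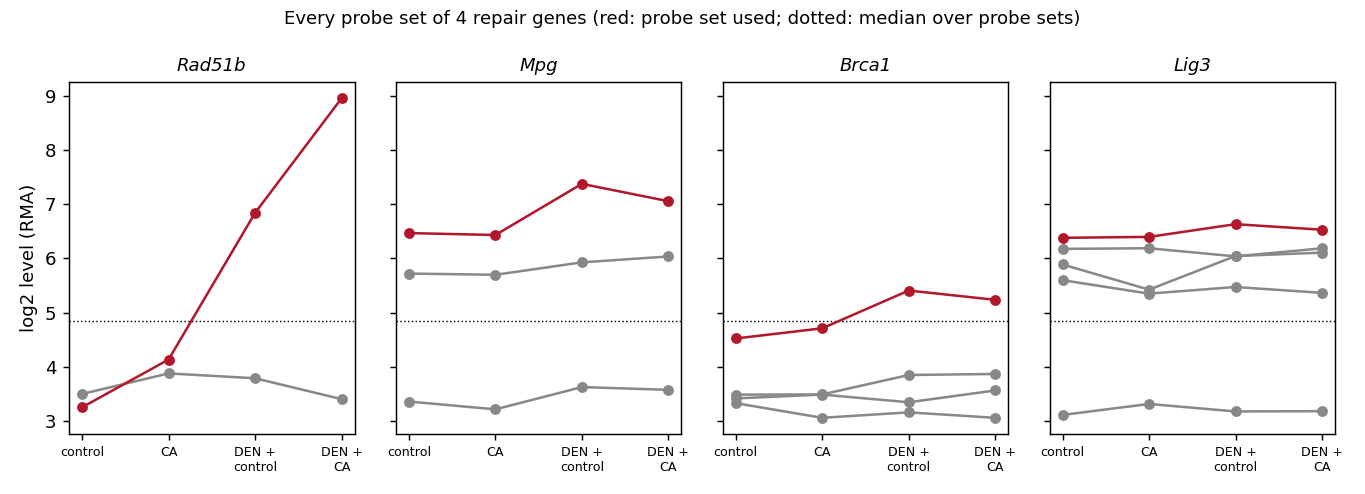
Log2 level of every probe set of Rad51b, Mpg, Brca1 and Lig3 on the 4 arrays, with the probe set used in red and the median over probe sets dotted. The used probe set of Rad51b goes from 3.26 to 8.95 while the other stays between 3.41 and 3.88.

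For the CA diet after DEN, where both levels were above 4.855, Rad51b ranked 7 from the highest of all 18194 genes, and 2 with the low levels of all genes raised to 4.855. In 22 genes a level at least 2-fold higher after DEN on the control diet was joined by a further 2-fold on the CA diet after DEN. These 2 comparisons share the array of DEN with control diet, in opposite roles. Within the 22, Rad51b had the highest CA diet difference, followed by Tmem45b at 2.06 and the chemokine gene Cxcl3 at 2.06, named after their values were seen. Beside Rad51b, the mean level of 5 measured cholangiocyte markers was 4.37, 4.65, 6.31 and 6.61 on the 4 arrays. Tspan8, at 3.69, 3.92, 11.38 and 11.75, carried most of this, and without it the mean of the other 4 was 4.55, 4.83, 5.04 and 5.32. Tspan8 and Sox9 were at least 2-fold higher after DEN on both diets, Krt7 lay under 4.855 on all arrays and Epcam lay between 5.36 and 5.71. Krt19 differed for DEN by 0.73 under control diet and 0.29 under CA diet. The mean of 6 macrophage markers was 7.53, 8.26, 8.16 and 8.74. The part of these cells in the Rad51b values was not tested.

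The promoter of Rad51b is shown because it was the only measured repair gene that was at least 2-fold higher after DEN on both diets. It is taken from RefSeq (GRCm38.p6), covers 250 bases before and 50 after the upstream of 2 listed start sites, and is written 5′ to 3′. Capitals mark a CCAAT box, searched as CCAAT on both strands.

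Rad51b promoter, chr12:79297032-79297331, plus strand: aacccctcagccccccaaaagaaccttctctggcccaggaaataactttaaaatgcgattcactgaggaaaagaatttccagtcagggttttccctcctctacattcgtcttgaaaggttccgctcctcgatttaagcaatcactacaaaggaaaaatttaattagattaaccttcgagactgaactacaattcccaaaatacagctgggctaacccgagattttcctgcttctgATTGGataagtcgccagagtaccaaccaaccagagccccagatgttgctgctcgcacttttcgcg

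The Rad51b window held 1 CCAAT box, no GC box (GGGCGG on either strand) and none of the E2F letters described further on. A CCAAT box occurred in the promoter windows of 42% of 14453 array genes with an entry, and a GC box in 57.3%. Such matches are letters in a window and do not show binding.

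Comparing DEN with no DEN under control diet, 1 of 42 repair genes was at least 2-fold higher, which is 2.38%, against 3.82% of all genes. None was 2-fold lower, against 0.632%. At 1.5-fold, 6 were higher and none lower, where 8.5% of all genes were higher and 3.82% lower. The 6 are 14.3% of the members. Among genes averaging at least 4.855, they are 17.6% of 34 members, against 11.1% of 11651 genes. The 6 were Mpg, Lig1, Msh6, Ddb1, Brca1 and Rad51b, of which Mpg and Brca1 dropped below 1.5-fold when the probe sets of a gene were averaged. Brca1 and Rad51b reached a mean of 4.855 only through their arrays with DEN. The share of 17.6% therefore depends on the values being compared and cannot show whether there was an excess. Quantile normalization left 4, without Lig1 and Msh6. When the arrays were centred on the median of the genes averaging at least 4.855, 3 were 1.5-fold higher (Mpg, Brca1 and Rad51b) and 3 lower (Fancc, Fancd2 and Nbn), against 6.0% and 8.94% of all genes.

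The median DEN difference over the 42 genes on the control diet was 0.12, and over all genes it was -0.02. It was -0.044 after that centring, which shifts every gene's DEN difference on the control diet by 0.16. Quantile normalization gave 0.047. The medians over all probe sets differ little between the arrays, so the sign of the group's median changed only with the centring on these higher genes.

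On the CA diet, DEN against no DEN gave 1 repair gene that was at least 2-fold higher, against 3.51% of all genes, and none lower, against 1.17%. At 1.5-fold, Mpg and Rad51b were higher and none was lower, against 7.96% and 4.64% of all genes. With quantile normalization, after centring on the higher genes or with probe sets averaged, Rad51b alone was 1.5-fold higher. The median over the members was 0.04.

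For the CA diet without DEN, no repair gene was 2-fold different, against 0.478% of all genes higher and 0.407% lower. At 1.5-fold Rad51b and Palb2 were higher and none lower, against 2.02% and 1.49% of all genes, and both genes lay under 4.855 on the 2 arrays. With low levels raised to 4.855, none was 1.5-fold higher. The median was 0.00.

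For the CA diet after DEN, Rad51b was the 1 gene at least 2-fold higher, against 0.253% of all genes, and none was lower, against 0.346%. At 1.5-fold this was also 1 gene higher and none lower, against 1.37% and 1.46% of all genes. Averaging the probe sets of each gene left no gene 2-fold higher. The median was -0.01. Of the 41 genes other than Rad51b, 40 lay between the 5th and 95th percentile of all genes with a mean of at least 4.855, and Ddb2 lay above.

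**Figure D3:**
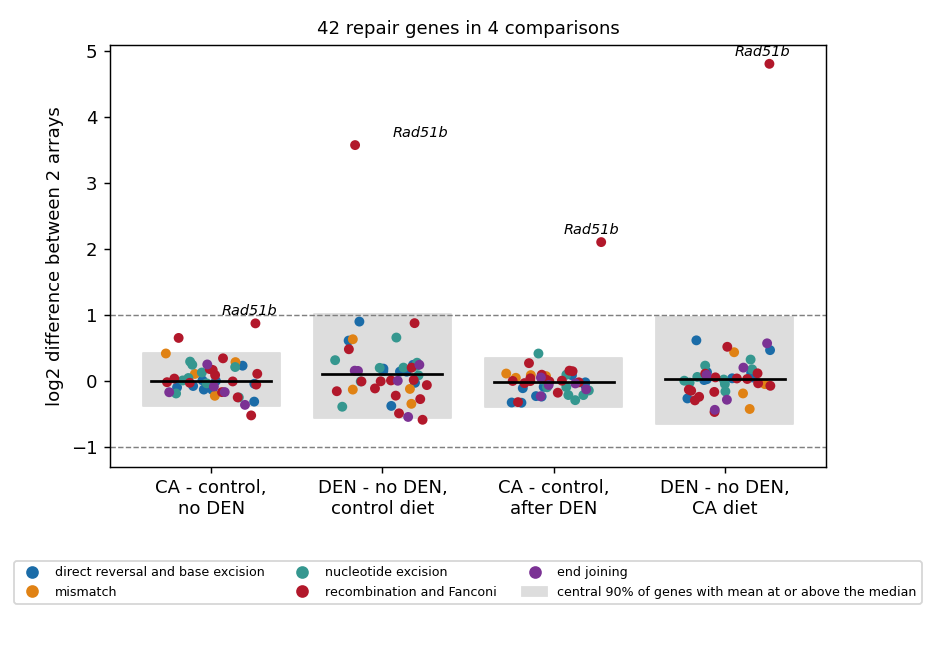
Log2 differences of the 42 repair genes in 4 comparisons of 2 arrays, with points coloured by route, black lines at the medians, dashed lines at 2-fold and grey bars over the central 90% of genes with a mean of at least 4.855. Apart from Rad51b, points outside the grey bars are Palb2, Fancd2 and Ddb2.

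In direct reversal and base excision, Mpg differed most and Mgmt lay on the other side. Mpg, the glycosylase that removes alkylated purines, read 6.47, 6.43, 7.37 and 7.05 in the order control, CA, DEN and DEN with CA. Both arrays with DEN lay above both arrays without it, by 0.91 under control diet and 0.62 under CA diet. Its other probe sets gave 0.21 and 0.27 under control diet and 0.34 and 0.36 under CA diet, so that all 3 pointed one way. The probe set that gave 0.27 and 0.36 lay under 4.855 on every array. Mgmt, which takes the alkyl group off O6-alkylguanine onto itself, read 7.37, 7.24, 6.996 and 6.98. Its arrays with DEN lay below those without, by 0.37 and 0.26, on its single probe set.

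Lig1, the ligase that seals Okazaki fragments and long repair patches, read 5.72, 5.96, 6.34 and 6.43, with the arrays with DEN above the others. The DEN difference was 0.62 under control diet and 0.47 under CA diet, on 1 probe set. Lig3, the ligase of short-patch repair and mitochondria, differed for DEN by 0.25 and 0.13. Its 5 probe sets spread from -0.14 to 0.25 for DEN on the control diet and from -0.13 to 0.68 on the CA diet. The remaining genes were close to level. Apex1, the abasic site endonuclease, read 9.38, 9.07, 9.54 and 9.21, lower on the CA diet by 0.31 without DEN and by 0.32 after it, and all 3 of its probe sets were lower on the CA diet in both settings. Parp1, the sensor of single-strand breaks, and its scaffold partner Xrcc1 differed for DEN by 0.15 and 0.19 under control diet and by 0.05 and 0.03 under CA diet. The other probe sets of Parp1 gave -0.13, -0.06 and 0.19 under control diet and 0.13, 0.03 and 0.25 under CA diet. Polb, the gap-filling polymerase, differed for DEN by 0.15 and 0.06. Its other probe sets gave -0.14, 0.17 and 0.16 under control diet and -0.25, -0.02 and 0.31 under CA diet. Ogg1, the glycosylase for 8-oxoguanine, lay between 4.74 and 4.83 on all arrays.

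After DEN, 8 of the 9 genes of this route had a lower value on the CA diet than on the control diet, all by less than 1.5-fold (median -0.10). Of all genes, 9086 of 18194 were below 0 in that comparison, and of those averaging at least 4.855, 6392 of 11651. Other probe sets of Mpg (0.11), Lig3 (0.15), Parp1 (0.03), Polb (0.02) and Ogg1 (0.10) had the opposite sign.

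In mismatch repair, Msh6 was higher after DEN and its alternative partner Msh3 was not. Msh6, the subunit that recognises single mismatches, read 6.35, 6.64, 6.99 and 7.09. Its DEN differences were 0.64 and 0.44, from 1 probe set, and both arrays with DEN lay above the others. Msh3, which recognises larger loops, read 6.80, 7.23, 6.69 and 6.81, highest on the CA diet without DEN. Its differences were -0.11 for DEN under control diet and -0.42 under CA diet. Pms2, the nicking subunit, read 5.51, 5.30, 5.17 and 5.25. Exo1, the exonuclease that removes the faulty strand, lay between 3.63 and 3.87, under 4.855 on every array.

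In nucleotide excision, Ddb1 had the largest DEN difference on the control diet and Ddb2 on the CA diet. Ddb1, the adaptor of the CUL4 ubiquitin ligase that is recruited to ultraviolet lesions, read 8.65, 8.87, 9.32 and 9.11 on 1 probe set. The DEN difference was 0.66 under control diet and 0.24 under CA diet. Ddb2, its damage-recognising partner, read 5.42, 5.72, 5.63 and 6.05 and was highest on the array with both treatments. The DEN difference of Ddb2 was 0.21 under control diet and 0.33 under CA diet, and its other probe set gave -0.14 in both. The CA diet difference of Ddb2 was 0.30 without DEN and 0.42 after it. Its other probe set read 5.66, 5.65, 5.52 and 5.52, level between the diets.

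Among the other 7 genes of this route the widest range over the 4 arrays was 0.38, that of Xpa. Xpc, which senses distorted helices, read 7.06, 7.31, 7.30 and 7.33, lowest on the control diet. Xpa, which verifies the damage, read 7.14, 6.90, 6.76 and 6.86, highest on the control diet. Both nucleases were nearly level, with Ercc5 (also called XPG) between 7.12 and 7.44 and Ercc4 (XPF) between 5.49 and 5.64. Ercc1, the partner of Ercc4, differed for DEN on the control diet by 0.28, but its 4 probe sets spread from -0.44 to 0.40. The helicases Ercc2 and Ercc3, subunits of the transcription factor TFIIH, differed for DEN by 0.09 and 0.21 under control diet and by 0.07 and -0.02 under CA diet.

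In recombination and the Fanconi pathway, Brca1 followed Rad51b. Brca1, which directs breaks to recombination, read 4.53, 4.71, 5.41 and 5.24, so that only the arrays with DEN were above 4.855. The DEN differences were 0.88 under control diet and 0.52 under CA diet. Its other 3 probe sets, all under 4.855 on every array, gave 0.36, -0.07 and -0.17 on the control diet. Palb2, which links Brca1 to Brca2, read 3.61, 4.27, 4.10 and 4.14, lowest on the control diet and under 4.855 throughout. Brca2, a mediator of recombination, lay between 5.75 and 5.89.

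Other members that act in recombination did not share the pattern of Rad51b. Rad51c read 5.23, 5.23, 5.01 and 5.29, and Xrcc3, which forms a complex with it, lay between 4.78 and 4.83. Rad52, an annealing protein, lay between 4.49 and 4.71. Rad54l, the motor protein of strand invasion, lay between 4.24 and 4.29, the narrowest range after that of Fancg and Xrcc3.

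Of the Fanconi genes, which act on crosslinks between strands, Fancd2 and Fancc were lower after DEN on the control diet. Fancd2, the subunit that is ubiquitinated at damage, read 4.64, 4.12, 4.06 and 4.05, highest on the control diet and under 4.855 throughout. Its 3 other probe sets gave 0.04, -0.48 and 0.06 for DEN on the control diet. Fancc, a core complex subunit, read 7.27, 7.10, 6.78 and 6.95, with differences of -0.48 and -0.16 for DEN. Both of its other probe sets were also lower for DEN on the control diet, by 0.23 and 0.05. Fanca lay between 5.06 and 5.30 and Fancg between 4.38 and 4.43.

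On the probe sets used, the damage kinases were level or lower after DEN. Atm, the kinase activated by double-strand breaks, read 7.33, 7.50, 7.06 and 7.22, and its DEN differences were -0.27 and -0.29 (other probe set -0.18 and -0.35). Atr, which responds to stalled replication, read 6.55, 6.60, 6.45 and 6.13, lowest with both treatments. Its other probe sets, under 4.855 on every array, gave -0.09 and 0.62 for DEN under control diet and -0.14 and 0.20 under CA diet. Neither of them was lowest with both treatments. Chek2, a kinase downstream of Atm, read 5.07, 5.42, 5.09 and 5.19, highest on the CA diet without DEN.

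In end joining, Nbn and Rad50, which belong to the same break-sensing complex, went in opposite directions after DEN. Nbn read 7.78, 7.62, 7.24 and 7.19, and its DEN differences were -0.54 and -0.43 on 1 probe set. Rad50 read 6.18, 5.83, 6.34 and 6.40, with DEN differences of 0.16 and 0.58, while its other probe set, under 4.855 throughout, gave -0.36 and -0.31. The Ku subunits Xrcc5 and Xrcc6, which hold broken ends, differed for DEN by 0.25 and 0.01 under control diet and by 0.21 and -0.28 under CA diet. The other probe set of Xrcc6, under 4.855 throughout, gave -0.16 under control diet and 0.46 under CA diet. Prkdc, the kinase that Ku recruits, lay between 5.46 and 5.79.

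The 2 DEN comparisons share no array, so their values can be set side by side. Of the 42 genes, 33 had the same sign on both diets (78.6%), of which 22 were above 0 and 11 below. Over all genes 70.4% had the same sign, and over those with a mean of at least 4.855, 76.1%. Across the 41 members other than Rad51b, the DEN differences on the 2 diets correlated at r = 0.72 (rho = 0.72). With Rad51b the values were r = 0.92 and rho = 0.74. Across all genes they were r = 0.81 and rho = 0.62, and across those with a mean of at least 4.855, r = 0.86 and rho = 0.75. Genes are not independent replicates. The diet differences without and after DEN, which also share no array, had the same sign in 24 of 42 members (57.1%), against 54.4% of all genes.

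**Figure D4:**
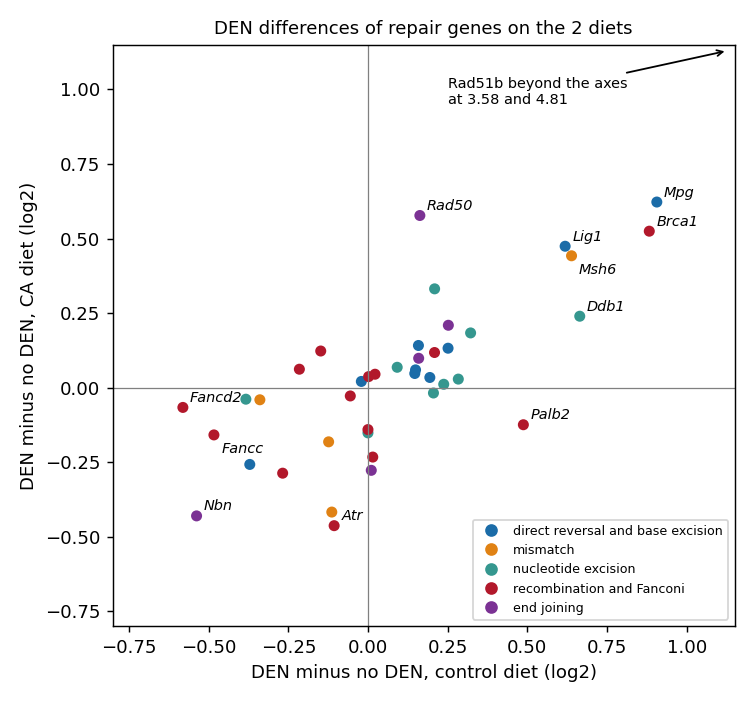
DEN minus no DEN in log2, with the control diet horizontal and the CA diet vertical, for 41 repair genes, coloured by route, with Rad51b beyond the axes at 3.58 and 4.81. Mpg, Brca1, Lig1, Msh6 and Ddb1 lie at the upper right, and Nbn, Fancc and Fancd2 at the lower left.

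Repair genes used during replication are often targets of E2F factors, which switch on genes of the S phase. The letters TTTCCCGC, TTTGGCGC, TTTCGCGC and TTTGCCGC, which spell out an E2F consensus, were searched on both strands of the RefSeq promoter windows of 300 bases (GRCm38.p6). Of 33 members with an entry 8 held at least 1 match (24.2%), against 3.81% of 14453 array genes with an entry. These letters are rich in G and C. The promoters of the members had a median GC content of 59.7%, against 52.7% over all 32851 promoters. Those include genes that are not on the array, and the GC content for the array genes alone is not given here. The share was not matched for GC content. In the list of replication and mitosis genes 8 of 25 did (32.0%). Windows of up to 20 bases on each side of the match are shown for these 8 genes, chosen after their values were seen, because genes with like letters had unlike values. Capitals mark the match, and Msh3 has 2 matches that overlap.

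Lig1, chr7:13278832-13278875, plus strand: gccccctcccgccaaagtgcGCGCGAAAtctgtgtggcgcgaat
Msh3, chr13:92355174-92355225, minus strand: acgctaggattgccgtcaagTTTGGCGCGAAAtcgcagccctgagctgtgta
Msh6, chr17:87975045-87975092, plus strand: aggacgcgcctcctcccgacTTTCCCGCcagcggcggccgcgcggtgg
Brca2, chr5:150522433-150522480, plus strand: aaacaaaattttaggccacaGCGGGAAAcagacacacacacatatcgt
Rad51c, chr11:87404932-87404979, minus strand: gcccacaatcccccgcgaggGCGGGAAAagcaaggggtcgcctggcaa
Rad51c, chr11:87404468-87404515, minus strand: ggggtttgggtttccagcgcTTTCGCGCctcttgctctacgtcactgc
Chek2, chr5:110839811-110839858, plus strand: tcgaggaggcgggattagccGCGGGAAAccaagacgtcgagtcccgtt
Fancg, chr4:43010326-43010373, minus strand: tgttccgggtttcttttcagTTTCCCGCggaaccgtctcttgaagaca
Xrcc6, chr15:82016303-82016350, plus strand: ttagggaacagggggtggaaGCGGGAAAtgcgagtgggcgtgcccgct

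Of these 8 genes only Lig1 and Msh6 were 1.5-fold higher after DEN on the control diet, and neither was with quantile normalization or with centring on the higher genes. The other 6 (Msh3, Brca2, Rad51c, Chek2, Fancg and Xrcc6) lay between -0.22 and 0.02. The median over the 8 was 0.01, and over the 25 members with an entry but no match it was 0.15, with Mpg, Ddb1, Brca1 and Rad51b among them. On the CA diet without DEN, the 8 had a median of 0.25 with values from -0.01 to 0.42, and the 25 had a median of -0.04. A match does not show that E2F acts there, and its absence from a window says nothing about the factor.

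Other repair genes were taken from a list of 107, of which 95 were measured. For DEN on the control diet 7 (7.37%) were 1.5-fold higher and 3 (3.16%) lower, with a median of 0.07. Of all genes, 8.5% were higher and 3.82% lower, so these shares were close to those of all genes. For the CA diet after DEN none was 1.5-fold higher or lower, against 1.37% and 1.46% of all genes. The 1 gene that was 2-fold different in any comparison was Rrm2, the ribonucleotide reductase subunit that makes deoxynucleotides for replication, which read 6.62, 7.40, 7.68 and 7.52. Just short of 2-fold, and named after their values were seen, were Trp53bp1, which steers breaks to end joining (5.83, 5.99, 6.81 and 6.72), and Mad2l2, a translesion and shieldin subunit, with 0.99 for DEN on the CA diet. Ercc8, a factor of transcription-coupled repair, was among the lower ones (6.16, 5.51, 5.22 and 5.29).

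The lists of replication and mitosis and of p53 targets are given beside them as markers of division and of the damage response. Of 29 measured replication and mitosis genes, 14 (48.3%) were at least 2-fold higher after DEN on the control diet and none lower (median 0.85). Of all genes, 3.82% were higher and 0.632% lower. Mki67, Ube2c, Top2a and Ccnb2 led with 3.26, 3.10, 2.72 and 2.41, all from levels under 4.855. On the CA diet without DEN 9 were 2-fold higher (median 0.42), against 0.478% of all genes. After DEN the CA diet gave none in either direction (median -0.04), against 0.253% higher and 0.346% lower. For DEN on the CA diet 9 were 2-fold higher and 1 lower, Ccne2 at -1.53 (median 0.71), against 3.51% and 1.17% of all genes. Of 17 measured p53 targets 8 were 2-fold higher after DEN on the control diet (median 0.71), against 3.82% of all genes. They were led by Btg2 (3.04), the cell cycle inhibitor Cdkn1a (2.54), Pmaip1 (1.64) and Eda2r (1.38). Of these 4, Pmaip1 and Eda2r had control levels under 4.855. On the CA diet 5 of 17 were 2-fold higher after DEN (median 0.40), against 3.51% of all genes. The comparisons of DEN under control diet and of the CA diet without DEN share the control diet array. The part of cell division in the values of Lig1, Msh6 and Brca1 was not tested.

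**Figure D5:**
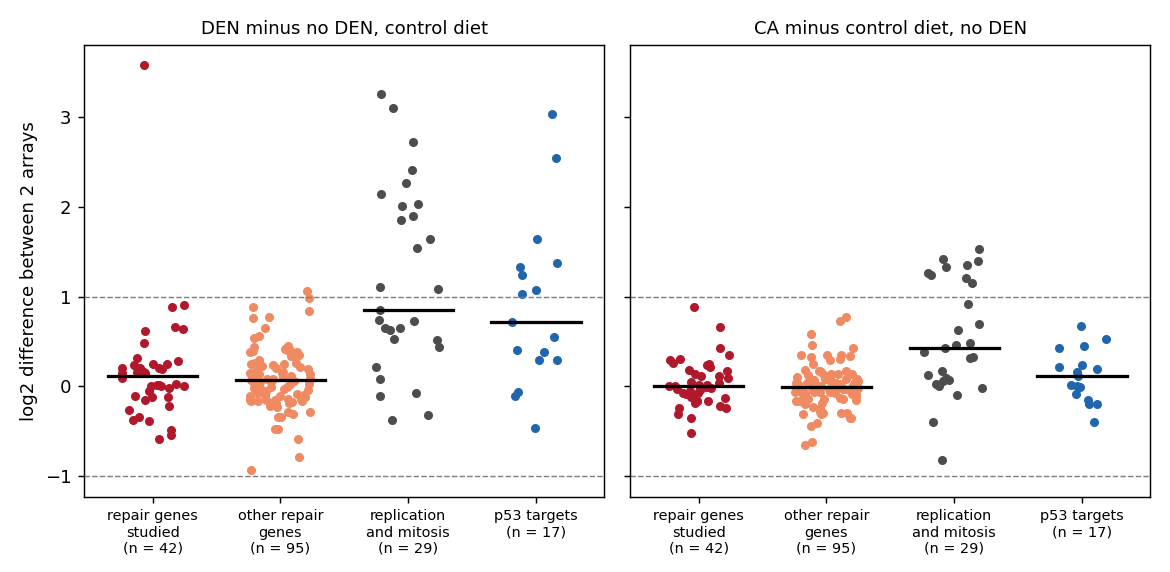
Log2 differences for DEN on the control diet (left) and for the CA diet without DEN (right) in 42 repair genes, 95 other repair genes, 29 replication and mitosis genes and 17 p53 targets, with black lines at the medians and dashed lines at 2-fold. The medians for DEN are 0.12, 0.07, 0.85 and 0.71.

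The 29 members with several probe sets show how far a value depends on the probe set. The spread between probe sets of a gene had a median of 0.36 for DEN on the control diet and 0.27 for the CA diet after DEN. All probe sets of a gene had the same sign in 10 of the 29 genes for DEN on the control diet and in 6 for the CA diet after DEN. For the 13 members with 1 probe set no such comparison could be made.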

How the data were processed

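Gene expression was measured on an Affymetrix mouse array with 45101 probe sets in 4 pools of liver RNA, 1 array each. The deposited values are log2 levels that the authors obtained from Partek 6.5, with RMA named among the methods, per the submitters' processing notes. RMA makes the arrays' distributions alike and can hide a shift shared by most genes. Total RNA was labelled with a biotin dendrimer kit, per the labels. Probe sets were named by the platform annotation (34958 with 1 symbol, 932 with several, 9211 unnamed here), and the 97 probe sets of members matched RefSeq gene identifiers with 0 changed symbols.

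A gene took its probe set with the highest mean, with no filter, and 34 of the 42 members had a mean of at least 4.855. Differences of log2 values were computed in Python 3.11.15 (pandas 2.3.3), and genes from 2-fold or 1.5-fold on were counted. No test was made. The calculation was tested on simulated data. Alternatives were a filter, low values raised, other normalizations and the mean over probe sets. All members are named, other repair genes where 2-fold different, and of the replication and p53 lists the 4 with the largest DEN difference under control diet; other names were chosen after their values were seen. The members and lists were chosen with earlier results of these data known.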

Additional observations from a re-analysis of the deposited data

How the results depend on the processing

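Values come from 1 array per group, and their number limits the precision. No paired analysis was possible because each group has 1 array and the labels carry no replicate numbers. Quantile normalization kept all 2-fold counts, as did the filter on mean level and raising low values. Rad51b passed that filter only through its arrays with DEN. Counting from 1.5-fold on gave 2 members higher for the CA diet without DEN, 6 for DEN on the control diet and 2 for DEN on the CA diet, in place of 0, 1 and 1. The mean over probe sets left 0 members 2-fold higher for the CA diet after DEN. The median over members for DEN on the control diet, 0.12, was 0.013 with low values raised and -0.044 after centring every array on its median over genes averaging at least 4.855. The other probe set of Rad51b gave -0.38 for the CA diet after DEN and -0.47 for DEN on the CA diet, the reverse of the probe set used.

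Alternatives for the 1.5-fold counts were chosen after the data were seen. For the CA diet without DEN the count of higher members was 1 with the filter on mean level and 0 with low values raised. For DEN on the CA diet it was 1 with quantile normalization, with centring and with the mean over probe sets. For DEN on the control diet, centring gave 3 higher and 3 lower, and quantile normalization 4 higher and 2 lower (Fancc and Nbn). The count of higher members was also 4 with the mean over probe sets and 5 with low values raised, against 6. The cause was not tested.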
